A study of Mus musculus with 191 samples.

Results

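Lung RNA was compared between mice given coumarin and mice given its corn oil vehicle, all female B6C3F1 hybrids. The 4 coumarin arrays, labelled COUM, came from mice gavaged with 200 mg/kg coumarin in 5 ml/kg corn oil on 5 days a week for 13 weeks and taken at 18 weeks of age. The 8 corn oil arrays came from mice of the same strain, sex, age and gavage schedule without coumarin, and form 2 labelled control sets of 4, CCO2 and CCO3. These 12 arrays were chosen by the code in their labels and by the shared array batch, which holds 52 of the 191 arrays of the series. From the same batch, 4 mice given 62 mg/kg 1,2-dibromoethane (DBET) and 4 given 100 mg/kg benzene (BENZ), both by corn oil gavage for the same time, served as other exposed groups. A further group of 3 mice given 240 mg/kg 2,3-benzofuran (BFUR), with 3 controls labelled CornOil, lies in another batch and is shown only side by side. Each array carries its own animal number, and neither the control set that belongs to coumarin nor the time of day of collection is labelled.

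Coumarin is a benzopyrone of tonka bean and other plants that was once used as a flavouring. Cytochrome P450 enzymes, some of them abundant in the club cells of mouse airways, oxidise it to an epoxide that rearranges to a reactive aldehyde. Glutathione conjugation and aldehyde oxidation or reduction remove these products. In mice, high doses of coumarin are known to injure club cells, and long-term gavage is known to raise lung tumours. Electrophiles of this kind can release the transcription factor NRF2 from its inhibitor KEAP1. NRF2 then drives genes of quinone and carbonyl reduction, glutathione transfer and thioredoxin reduction through antioxidant response elements.

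Values were deposited as logarithms of unstated base, read here as log2, with array means near 0, so a negative value marks a dim probe set and not a negative amount. The 4 COUM arrays differ in the spread of their values, with array SDs of 1.28, 1.24, 1.05 and 1.01, against 1.14 to 1.28 in CCO2 and 1.08 to 1.39 in CCO3. COUM replicate 4 has the lowest SD of all arrays in the series, and COUM replicates 3 and 4 are the compressed ones here together with CCO3 replicates 3 and 4. The mean array SD was 1.14 ± 0.14 in COUM and 1.22 ± 0.11 in corn oil (SD, n = 4 and 8, two-sided exact permutation p = 0.289). RNA integrity numbers were 8.2, 8.2, 7.4 and 8.3 in COUM and 7.9 to 8.8 in corn oil (exact permutation p = 0.0606), and against CCO2 alone, at 8.4 to 8.8, every COUM value was lower (exact permutation p = 0.0286, the lowest possible value for 4 and 4 arrays). The GAPDH 3' minus 5' difference, another sign of RNA quality, was 0.173 to 0.228 in COUM, against 0.253 to 0.500 in CCO2 (exact permutation p = 0.0286) and 0.0884 to 0.500 in all corn oil arrays (exact permutation p = 0.527). Fits with the RNA integrity number as a covariate, with scaled arrays or without the arrays of low SD are counted below. A fit with the beta-actin 3' minus 5' difference, a further sign of RNA quality, is counted there too. No fit took the GAPDH difference into account, and whether these measures are the source of the results was not tested. The means of the COUM, CCO2 and BENZ arrays coincide at 0.00159, while those of CCO3 and DBET coincide at -0.0020. By these means they form 2 sets of 12 and 8 arrays, and CCO2 is in the same set as coumarin. Such a set is called a processing set below, but no label names it, and whether the sets were processed apart is not known. The CCO3 animals carry the numbers 132, 59, 60 and 134 and the DBET animals numbers between 52 and 58, and without CCO3 animals 59 and 60 the calls were 77 higher and 68 lower. Lung markers were bright on all 12 arrays: surfactant protein C (Sftpc), the product of alveolar type 2 cells, was at 6.20 to 6.92 in COUM and 6.37 to 7.45 in corn oil, and the club cell secretoglobin Scgb1a1 was at 5.83 to 6.58 in COUM and 6.33 to 7.19 in corn oil. In whole lung RNA, fewer cells of a type and less RNA per cell cannot be told apart.

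Coumarin lungs had more of a compact group of detoxification transcripts, led by the carboxylesterase Ces1g and the quinone reductase Nqo1. They also had more of some airway secretory transcripts, led by Agr2, with 3 risen of 20 tested goblet and mucous cell genes. They had less of the collagen transcripts Col3a1 and Col1a1, elastin, the endothelial cadherin Cdh5 and the chaperones Hsph1 and Hspb1. However, 37 genes fell without COUM replicate 3 and 40 without COUM replicate 4, against 220 with all arrays. Likewise 108 genes rose without COUM replicate 3 and 109 without COUM replicate 4, against 549 with all arrays. A gene was called where limma gave a Benjamini-Hochberg adjusted p below 0.05 against CCO2 and against CCO3 with equal sign, and the log2 fold change ± SE is COUM minus the mean of the 2 sets, with the larger adjusted p. The SE and p rest on 1 spread per gene shared by all groups of the series. They do not measure the spread among the 4 coumarin mice, which for some genes is much wider. By that rule 549 of 13523 tested genes rose (4.06%) and 220 fell (1.63%), together 5.69%, while CCO2 against CCO3 gave 2 higher and 2 lower (0.0148% each way). Counts by gene list below stand beside these shares, and 1 or 2 calls in a list are not read as a change of its cell type or pathway. The risen genes were mostly dim and moved little: 518 of 549 (94.4%) had a mean level below the median of tested genes, and 507 moved by under 0.5. Their median difference from corn oil was 0.07 in COUM replicates 1 and 2 and 0.40 in COUM replicates 3 and 4. The fallen genes were -0.31 in COUM replicates 1 and 2 and -0.57 in COUM replicates 3 and 4, with a median over all tested genes of 0.02 and -0.18.

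Which arrays enter decides how many genes pass. Without COUM replicates 3 and 4 and CCO3 replicates 3 and 4, the arrays with an SD under 1.1, 60 genes rose (0.444%) and 20 fell (0.148%). Against CCO2 alone 908 rose (6.71%) and 666 fell (4.92%). With the 12 arrays alone, without the other groups' estimate of the spread, 16 rose and 1 fell. After each array was scaled to the mean SD of the batch 1008 rose (7.45%) and 305 fell (2.26%), and after quantile normalization 1231 rose (9.1%) and 319 fell (2.36%). Of the calls, 66 rises and 23 falls were kept with each of the 12 arrays left out in turn, and 44 rises and 12 falls were kept also without the arrays of low SD, after scaling, after quantile normalization and with the batch alone. Those 44 and 12 are called stable below, a definition set with the calls in view, and 22 and 3 of them were kept with the processing set of COUM, BENZ and CCO2 alone. In the 44 stable rises the median difference was 0.75 in COUM replicates 1 and 2 and 0.45 in COUM replicates 3 and 4. A stable gene had to be called without COUM replicates 3 and 4, so a clear difference in replicates 1 and 2 is part of the definition.

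**Figure D1:**
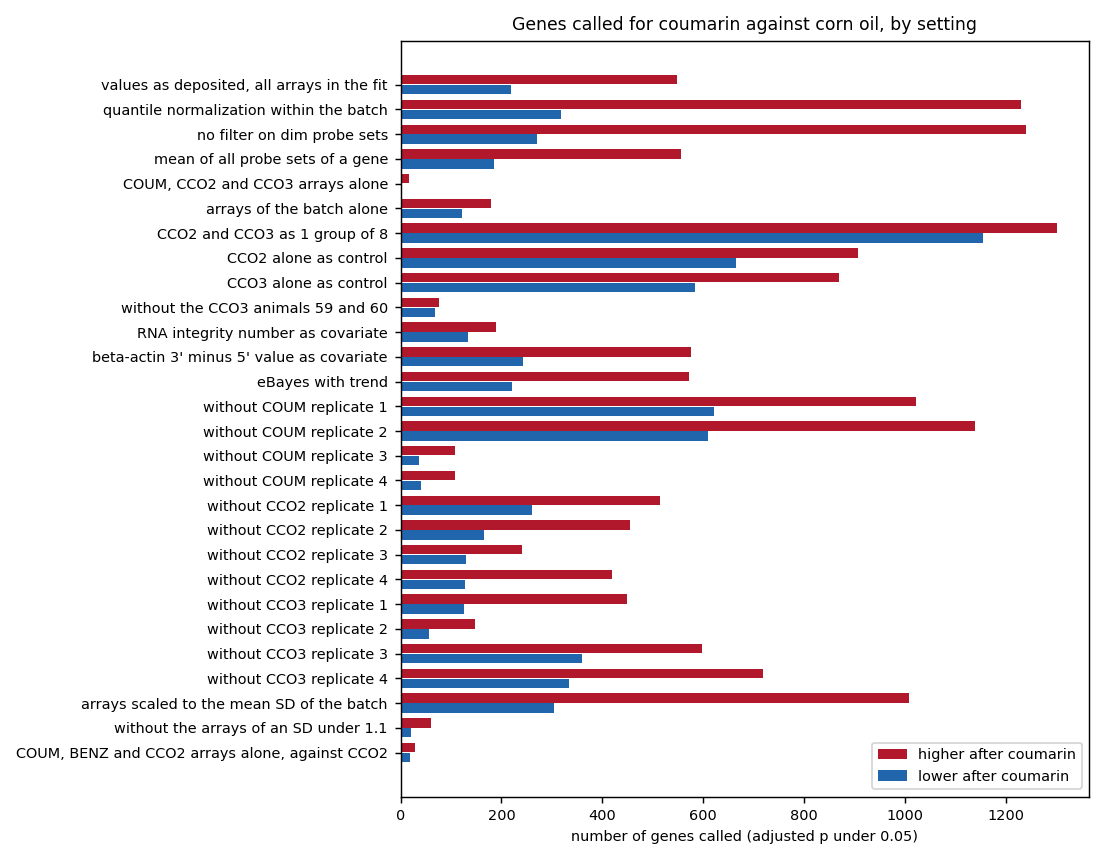
Numbers of genes higher (red bars) and lower (blue bars) with coumarin than with corn oil, on an axis of gene counts from 0, 1 pair of bars for each analysis setting named at the left. Counts with COUM replicate 3 or 4 left out are 108 and 109 higher, against 1022 and 1140 with COUM replicate 1 or 2 left out.

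The largest rise of all tested genes was Ces1g, a carboxylesterase of the endoplasmic reticulum that hydrolyses esters and lipids. Ces1g was at 2.72, 1.48, 1.90 and 1.21 in COUM, against -0.43, -0.43, -0.25 and -0.42 in CCO2 and -0.44, -0.21, -0.53 and -0.53 in CCO3. The lowest coumarin array lay far above the highest corn oil array, although the coumarin animals themselves spanned more than the 8 controls did. The log2 fold change was 2.23 ± 0.14 (adjusted p = 3.75e-23), or 4.69-fold, and it was 2.45 without the arrays of low SD. Of 11 tested carboxylesterases 4 rose and 0 fell, with a median difference of 0.22 against -0.06 over all tested genes. Ces1f, a neighbouring family member, was at 2.00, 1.41, 0.45 and 1.03 in COUM, against 0.05 to 0.50 in CCO2 and 0.08 to 0.56 in CCO3 (0.93 ± 0.14, adjusted p = 1.75e-05). COUM replicate 3 lay among the controls for Ces1f and the other 3 above them. Ces1e was at 0.88, 0.61, 0.46 and 0.34 in COUM and at most 0.23 in corn oil (0.50 ± 0.08, adjusted p = 0.000662), and the dim Ces1h was at -0.33 to -0.19 in COUM and -0.77 to -0.47 in corn oil (0.37 ± 0.05, adjusted p = 6.07e-06). All 4 of these calls are stable, but those of Ces1f and Ces1h were not kept with the processing set of COUM, BENZ and CCO2 alone. The brightest member, Ces1d, a lung and fat triacylglycerol hydrolase, was at 4.06 to 4.93 in COUM and 3.68 to 4.51 in corn oil and did not pass (0.38 ± 0.11, adjusted p = 0.0894). In a fit of every probe set on its own, 43 genes named here were called by the probe set used and have further ones, of which 24 had no further probe set called the same way, 6 had some and 13 had all. Array probes of close family members can share signal, and which of them a probe set reads was not tested.

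Promoter windows are shown for Ces1g and Nqo1, the largest rises of the carboxylesterase and NRF2 lists, and for Txnrd1, the 1 gene of 12 searched that holds the motif. Each window holds 250 bases before and 50 after a gene start, from RefSeq on GRCm38.p6, and capitals mark the core TGACNNNGC of the antioxidant response element, searched on both strands.
Ces1g (chr8:93337160-93337459, minus strand): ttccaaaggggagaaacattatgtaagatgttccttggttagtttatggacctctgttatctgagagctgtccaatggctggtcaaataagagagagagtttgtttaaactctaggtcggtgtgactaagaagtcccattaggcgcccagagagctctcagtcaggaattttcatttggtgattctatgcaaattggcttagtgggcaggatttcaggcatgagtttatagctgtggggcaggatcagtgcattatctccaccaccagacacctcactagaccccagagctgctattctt
Nqo1 (chr8:107403156-107403455, minus strand): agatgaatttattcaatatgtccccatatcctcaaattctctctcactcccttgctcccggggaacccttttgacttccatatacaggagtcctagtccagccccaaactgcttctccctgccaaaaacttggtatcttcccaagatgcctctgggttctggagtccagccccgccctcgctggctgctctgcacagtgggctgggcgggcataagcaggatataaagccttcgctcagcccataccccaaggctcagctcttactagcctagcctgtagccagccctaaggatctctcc
Txnrd1 (chr10:82858956-82859255, plus strand): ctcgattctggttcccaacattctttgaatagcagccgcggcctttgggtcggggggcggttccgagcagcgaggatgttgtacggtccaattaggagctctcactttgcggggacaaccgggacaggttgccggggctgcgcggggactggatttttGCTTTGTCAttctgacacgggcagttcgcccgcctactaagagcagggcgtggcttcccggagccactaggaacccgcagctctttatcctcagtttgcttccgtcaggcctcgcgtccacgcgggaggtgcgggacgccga
Of the 15 called genes of the NRF2, carboxylesterase and coumarin-metabolising lists 12 have a window. Only Txnrd1 holds the core, in the second of its 3 windows, on the opposite strand and starting 92 bases before the gene start, which is 8.33% of the 12 genes. Of all 27025 genes with a window 3781 hold it (14.0%). No match says only that these letters are not in the window, and a match is a description of the sequence. The windows of Ces1e, Ces1g and Ces1h lie within 150.2 kb on chromosome 8, those of Cbr1 and Cbr3 within 75.4 kb on chromosome 16, and those of Gstm1 and Gstm3 within 48.8 kb on chromosome 3.

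NRF2 and glutathione genes rose as enzymes of quinone, carbonyl and peroxide reduction and of glutathione transfer, while the genes of glutathione synthesis did not pass. Of 29 tested genes 9 rose and 0 fell, with a median difference of 0.20. Nqo1, which reduces quinones by 2 electrons, was at 1.22, 1.15, 0.85 and 0.78 in COUM, against -0.31, -0.12, -0.33 and -0.20 in CCO2 and -0.26, -0.12, -0.25 and -0.36 in CCO3. All 4 coumarin arrays stood above all controls, and the 8 controls lay within a narrow band. The log2 fold change was 1.24 ± 0.10 (adjusted p = 2.34e-16), or 2.37-fold, and 1.40 without the arrays of low SD. Cbr3, a carbonyl reductase, was at 3.51, 3.13, 2.81 and 2.52 in COUM, against 1.56, 1.65, 1.95 and 2.34 in CCO2 and 2.13, 1.97, 1.34 and 1.42 in CCO3 (1.20 ± 0.15, adjusted p = 5.96e-07). Its neighbour Cbr1 was at 2.73, 2.54, 2.39 and 2.04 in COUM and 1.29 to 2.04 in corn oil (0.73 ± 0.10, adjusted p = 1.84e-05). Coumarin arrays did not overlap the controls for either gene, Cbr1 only narrowly, since COUM replicate 4 equals CCO3 replicate 2 to 2 decimals.

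Gpx2, the epithelial glutathione peroxidase, was at 3.12, 3.05, 2.86 and 2.51 in COUM, against 1.75, 1.85, 1.82 and 2.22 in CCO2 and 1.91, 1.69, 1.39 and 1.34 in CCO3. The groups did not overlap, and the log2 fold change was 1.14 ± 0.16 (adjusted p = 0.000168), or 0.97 against CCO2 alone. The glutathione transferase Gsta4, which conjugates lipid aldehydes, was at 4.14, 3.94, 3.55 and 3.20 in COUM and 2.68 to 3.41 in corn oil (0.62 ± 0.12, adjusted p = 0.0129), so that COUM replicate 4 lay within the control range. Gstm1 was at 5.45, 5.22, 5.07 and 4.62 in COUM and 4.12 to 5.10 in corn oil (0.52 ± 0.10, adjusted p = 0.00225), and the low Gstm3 at 1.00, 0.65, 0.93 and 0.93 in COUM and 0.19 to 0.72 in corn oil (0.42 ± 0.09, adjusted p = 0.0491). Both overlapped the controls in 1 or 2 arrays. Biliverdin reductase Blvrb (0.54 ± 0.11, adjusted p = 0.00497) and thioredoxin reductase Txnrd1 (0.47 ± 0.12, adjusted p = 0.0393) rose as well. Without the arrays of low SD, Txnrd1 kept its call at 0.69 and Gsta4 at 0.80, whereas Blvrb, Gstm1 and Gstm3 lost theirs. Txnrd1 and Gstm3 each lost it also in 6 of the 12 analyses that left out 1 array.

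Gclc, the catalytic subunit of the rate-limiting step of glutathione synthesis, was at 3.52, 3.37, 2.66 and 2.60 in COUM, against 2.81 to 3.42 in CCO2 and 2.80 to 3.20 in CCO3. Its difference of 0.02 ± 0.16 (adjusted p = 0.887) hides a split, with COUM replicates 1 and 2 at the top of the control range or above it and COUM replicates 3 and 4 below it. The modifier subunit Gclm was at 1.42 to 1.86 in COUM and 1.24 to 1.78 in corn oil (0.15 ± 0.08, adjusted p = 0.52). Heme oxygenase Hmox1 was at 0.49 to 0.71 in COUM and 0.23 to 1.05 in corn oil (-0.07 ± 0.13, adjusted p = 0.898), and sulfiredoxin Srxn1 at 0.68 to 1.04 and 0.33 to 0.98 (0.29 ± 0.08, adjusted p = 0.187). None of these 4 passed, and for each the ranges overlap. Outside the list, the omega-class transferase Gsto1 was at 4.54, 4.45, 4.24 and 3.73 in COUM and 2.81 to 3.78 in corn oil (0.88 ± 0.15, adjusted p = 0.00122), with overlap in COUM replicate 4 alone. The NRF2 count depends on the arrays: it was 11 against CCO2 alone, 7 without the arrays of low SD, 5 with the processing set of COUM, BENZ and CCO2 alone, 18 after scaling, and 5 with the batch arrays that have an RNA integrity number alone and that number as a covariate, with 0 falls in each. That last fit changes both the arrays and the covariate. Over all tested genes it gave 190 rises and 133 falls, and the batch alone gave 179 and 122. List counts for the batch alone are not given here.

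Among enzymes that make or remove coumarin's products, Aldh3a1 and Adh7 rose, and the P450 genes Cyp2f2 and Cyp1a1 did not pass. Of 23 tested genes of this list 2 rose and 0 fell, with a median difference of 0.08. Aldh3a1, which oxidises aldehydes, was at 2.62, 2.41, 2.26 and 1.97 in COUM, against 1.31, 1.46, 0.93 and 1.41 in CCO2 and 1.68, 1.55, 1.42 and 0.97 in CCO3. All coumarin arrays were higher than all controls (0.97 ± 0.18, adjusted p = 0.00126), and without the arrays of low SD the value was 1.07 with an adjusted p of 0.0523. Adh7, an epithelial alcohol dehydrogenase, was at 0.72, 0.98, 0.74 and 0.59 in COUM and -0.08 to 0.20 in corn oil (0.70 ± 0.10, adjusted p = 3.52e-05), a stable call without overlap. Cyp2f2, the main P450 of mouse club cells, was at 6.55, 6.41, 6.31 and 5.80 in COUM and 5.90 to 6.84 in corn oil. Its difference was -0.11 ± 0.09 (adjusted p = 0.875), with a sign that turns to 0.35 after scaling. Cyp1a1, a target of the aryl hydrocarbon receptor, was at 0.24 to 0.95 in COUM and 0.28 to 0.86 in corn oil (0.12 ± 0.21, adjusted p = 0.782).

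Of 14 amine and aldehyde oxidases and reductases 2 rose and 0 fell, with a median difference of 0.19. Aoc1, a secreted diamine oxidase that breaks down histamine and putrescine, was at 1.63, 1.87, 0.94 and 1.56 in COUM, against 0.39, 0.56, 0.39 and 0.67 in CCO2 and 0.36, 0.24, 0.36 and 0.33 in CCO3. Every coumarin array was above every control, with COUM replicate 3 nearest to them (1.09 ± 0.15, adjusted p = 4.13e-05). The aldo-keto reductase Akr1c12, dim on every array, rose by 0.18 ± 0.05 (adjusted p = 0.0397), a call lost in 5 of 12 analyses that left out 1 array. Cmbl, a hydrolase of the cytosol, was at 2.05, 2.12, 1.66 and 1.57 in COUM and 0.88 to 1.51 in corn oil (0.64 ± 0.12, adjusted p = 0.0037), also without overlap. The calls of Cmbl and Gsto1 were not kept with the processing set of COUM, BENZ and CCO2 alone.

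**Figure D2:**
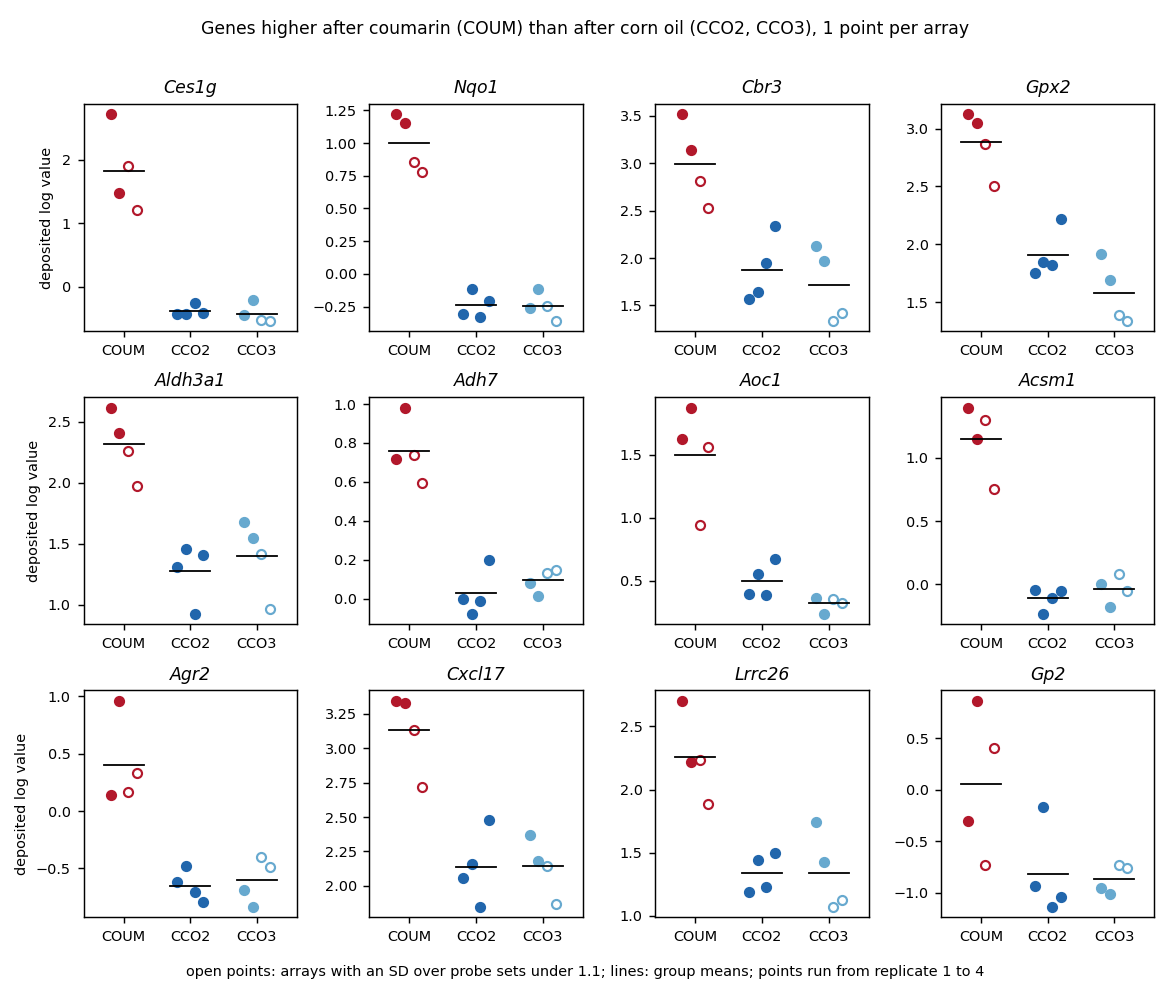
Deposited log2 values of 12 genes that rose with coumarin, each point 1 array, each line a group mean and open points the arrays of low SD, with COUM left of CCO2 and CCO3. Ces1g sits between 1.21 and 2.72 in COUM and between -0.53 and -0.21 in corn oil, and Gp2 is the gene with overlap.

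Airway secretory genes rose in part. Of 20 tested goblet and mucous cell genes 3 rose and 0 fell, with a median difference of 0.17. Agr2, a disulfide isomerase needed for mucin folding, was at 0.14, 0.96, 0.16 and 0.33 in COUM, against -0.62, -0.48, -0.71 and -0.79 in CCO2 and -0.69, -0.83, -0.40 and -0.49 in CCO3. The groups did not overlap, and COUM replicate 2 was well above the other 3. The log2 fold change was 1.03 ± 0.15 (adjusted p = 2.74e-05), or 2.04-fold, and 1.26 without the arrays of low SD. A second and dimmer probe set of Agr2 was at -1.11 to -0.61 in COUM and -1.22 to -1.02 in corn oil and did not pass (0.23 ± 0.08, adjusted p = 0.0789). The gel-forming mucin Muc5ac, at -0.01 to 0.19 in COUM and -0.28 to 0.01 in corn oil, rose by 0.23 ± 0.05 (adjusted p = 0.0232), but not without the arrays of low SD (adjusted p = 0.621). Galnt12, which starts mucin-type O-glycans, rose by 0.23 ± 0.05 (adjusted p = 0.00964).

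Of 19 club cell genes 2 rose and 1 fell, with a median difference of 0.19. Cxcl17, a mucosal chemokine, was at 3.35, 3.33, 3.14 and 2.72 in COUM, against 2.06, 2.16, 1.85 and 2.48 in CCO2 and 2.37, 2.18, 2.15 and 1.87 in CCO3 (0.99 ± 0.19, adjusted p = 0.000988). The matrix protein gene Chad was at 2.62, 2.49, 1.19 and 1.99 in COUM and 0.83 to 1.38 in corn oil (0.93 ± 0.16, adjusted p = 0.0006). Cxcl17 showed no overlap, and for Chad COUM replicate 3 lay among the controls. The club cell marker Scgb1a1 fell by 0.33 on the log2 scale (SE 0.09, adjusted p = 0.0346), with COUM at 6.58, 6.53, 6.48 and 5.83, but the sign turned to 0.13 after scaling and the call was lost without COUM replicate 3 or 4. Gp2, a glycoprotein of mucosal and microfold cells, was at -0.30, 0.86, -0.73 and 0.41 in COUM, against -0.93, -0.17, -1.14 and -1.04 in CCO2 and -1.01 to -0.73 in CCO3 (0.90 ± 0.13, adjusted p = 9.5e-06). COUM replicates 2 and 4 made that rise, while COUM replicate 3 was at the control level and CCO2 replicate 2 above COUM replicate 1. Lrrc26, a subunit of epithelial potassium channels, was at 2.70, 2.22, 2.24 and 1.89 in COUM and 1.07 to 1.74 in corn oil (0.92 ± 0.12, adjusted p = 1.61e-06), without overlap. Klk13, a kallikrein protease, was at 0.42 to 0.86 in COUM and -0.17 to 0.33 in corn oil (0.57 ± 0.07, adjusted p = 1.03e-06), and Wfdc3, of the whey acidic protein family, at 0.01 to 0.26 in COUM and -0.64 to -0.39 in corn oil (0.60 ± 0.05, adjusted p = 7.08e-15). A further probe set of Wfdc3 did not pass (0.01 ± 0.04, adjusted p = 0.932). With the processing set of COUM, BENZ and CCO2 alone, 1 goblet and mucous cell gene and 0 club cell genes rose. Agr2, Lrrc26, Klk13 and Wfdc3 kept their calls there, and Cxcl17, Chad, Gp2 and Galnt12 did not.

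Ciliated cells gave 1 rise among 16 tested genes, beside 4.06% risen of all tested genes. It was Cfap126, a protein of the ciliary base, at 0.50 ± 0.13 (adjusted p = 0.0231), a call lost without the arrays of low SD. Basal and neuroendocrine cell genes gave 3 rises among 8, Krt14 (0.25 ± 0.06), Trp63 (0.22 ± 0.05) and Resp18 (0.36 ± 0.07), all at negative levels on every array. Trp63 was at -0.49 and -0.51 in COUM replicates 1 and 2, -0.19 and -0.15 in COUM replicates 3 and 4 and -0.86 to -0.33 in corn oil, so its rise lay in the compressed arrays. None of the 3 kept its call without them. Of 19 alveolar type 2 and 15 alveolar type 1 genes none rose or fell, with medians of -0.11 and -0.14 that turn to 0.25 and 0.17 after scaling; Ager, a type 1 cell receptor, was at -0.14 ± 0.09 (adjusted p = 0.978) and Sftpc at -0.15 ± 0.09 (adjusted p = 0.976).

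Further rises belong to lipid and acyl metabolism and to plasma-type proteins, genes grouped after their values were seen. Acsm1, a mitochondrial medium-chain acyl-CoA synthetase, was at 1.40, 1.15, 1.30 and 0.75 in COUM, against -0.04, -0.23, -0.11 and -0.05 in CCO2 and 0.00, -0.18, 0.08 and -0.05 in CCO3. The controls clustered near 0 and every coumarin array lay above them (1.22 ± 0.12, adjusted p = 6.06e-12). Acox2, the peroxisomal oxidase of branched chains and bile acid precursors, was at 1.27, 1.07, 0.97 and 0.97 in COUM and 0.20 to 0.61 in corn oil (0.69 ± 0.09, adjusted p = 3.27e-06). Pnliprp1, a pancreatic lipase-related protein, was at 0.84, 0.36, 0.16 and 0.00 in COUM and -0.69 to -0.48 in corn oil (0.94 ± 0.06, adjusted p = 3.75e-21). Neither gene overlapped between groups.

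Fetub, a secreted protease inhibitor, was at 0.92, 1.11, 0.79 and 0.53 in COUM and -0.18 to 0.05 in corn oil (0.91 ± 0.12, adjusted p = 5e-07). Serpind1, heparin cofactor II of plasma, was at 0.77, 0.69, 0.81 and 0.29 in COUM and -0.33 to 0.01 in corn oil (0.82 ± 0.11, adjusted p = 1.82e-05). Azgp1, a secreted zinc-binding glycoprotein, was at 1.65, 1.15, 1.04 and 0.79 in COUM and -0.08 to 0.59 in corn oil (0.95 ± 0.20, adjusted p = 0.00929), and its adjusted p was 0.0935 without the arrays of low SD. All 3 separated the groups fully. Alpha-fetoprotein, Afp, was at 0.25, 0.23, 0.59 and -0.09 in COUM and -0.64 to -0.13 in corn oil (0.59 ± 0.15, adjusted p = 0.0215), lost without COUM replicate 3. Hal, which opens histidine breakdown, was called at 0.93 ± 0.19 (adjusted p = 0.00803) by 1 animal: it was at 1.96 in COUM replicate 3, at -0.44 to -0.14 in the other 3 coumarin arrays and at -0.92 to -0.42 in corn oil, and was not called without that array.

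**Figure D3:**
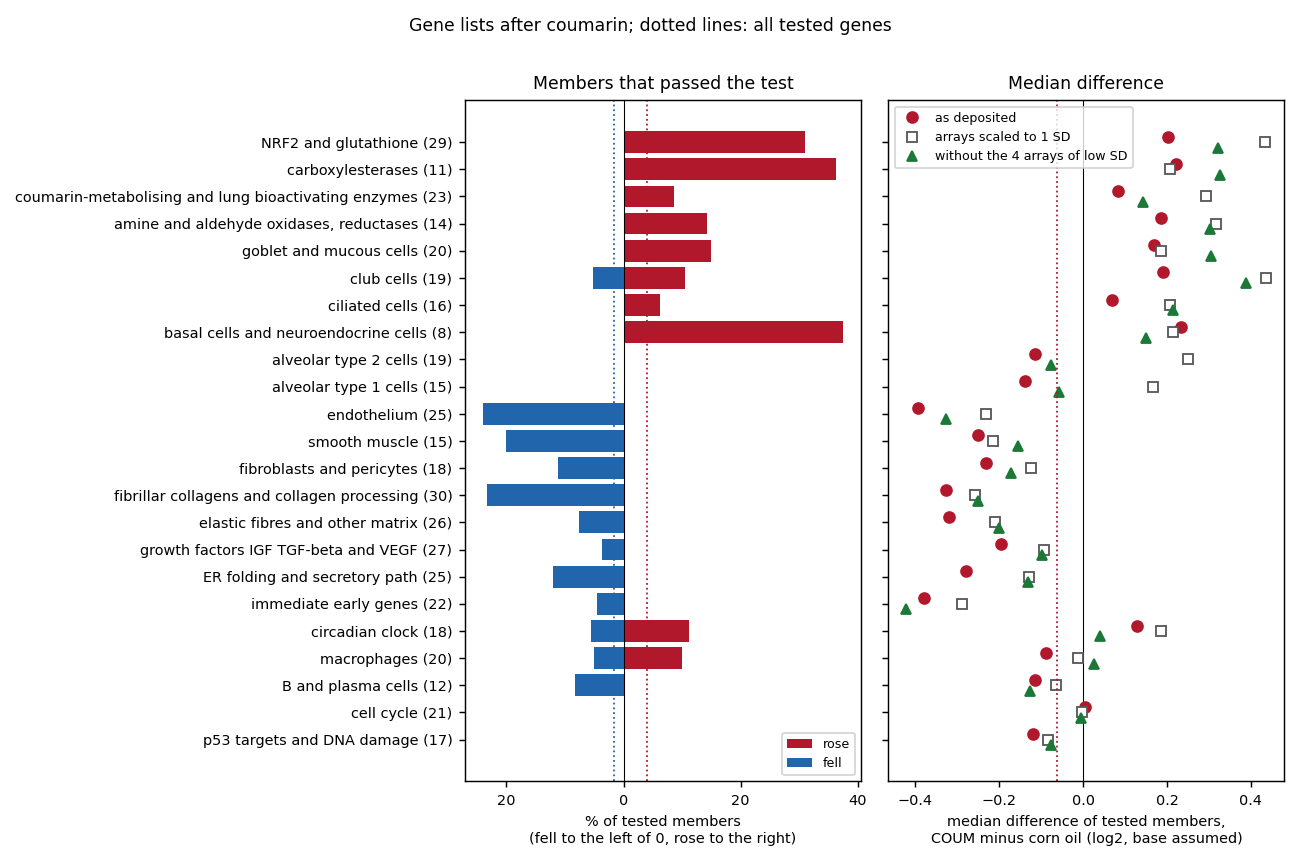
Left, the percentage of each list's tested genes (number in brackets) that rose (red, right of 0) or fell (blue, left of 0). Right, the list's median log2 difference, COUM minus corn oil, as deposited (circles), with arrays scaled (squares) and without the arrays of low SD (triangles), with dotted lines for all tested genes. The NRF2 and glutathione list has 9 of 29 genes risen and the collagen list 7 of 30 fallen.

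Of 30 tested collagen and collagen-processing genes 7 fell and 0 rose, with a median difference of -0.33. Col3a1, fibrillar collagen III, was at 3.59, 3.79, 2.68 and 2.59 in COUM, against 3.82, 4.11, 3.88 and 4.23 in CCO2 and 4.39, 4.51, 3.47 and 3.81 in CCO3. COUM replicates 3 and 4 lay far below every control, whereas COUM replicates 1 and 2 were above CCO3 replicate 3. The log2 fold change was -0.87 ± 0.15 (adjusted p = 0.0003), and -0.54 with an adjusted p of 0.621 without the arrays of low SD. A second probe set of Col3a1 differed by -0.33 ± 0.12 (adjusted p = 0.214). Col1a1, the alpha 1 chain of collagen I, was at 0.81, 1.24, 0.85 and 0.62 in COUM, against 1.60, 1.93, 1.40 and 1.87 in CCO2 and 1.96, 1.73, 1.35 and 1.56 in CCO3. Here all 4 coumarin arrays lay below all controls (-0.80 ± 0.15, adjusted p = 0.00208).

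Its partner chain Col1a2 was at 2.96, 3.33, 2.65 and 2.42 in COUM and 2.91 to 3.74 in corn oil (-0.55 ± 0.13, adjusted p = 0.0211). The prolyl hydroxylase subunit P4ha1 was at 2.44, 2.12, 1.41 and 1.50 in COUM and 2.19 to 2.64 in corn oil (-0.55 ± 0.14, adjusted p = 0.0223). Both overlapped the controls in COUM replicates 1 or 2, and both calls were lost without COUM replicate 3 or 4. A second probe set of P4ha1 did not pass (-0.14 ± 0.17, adjusted p = 0.899). Further probe sets of Col1a1 (-0.44 ± 0.09, adjusted p = 0.0226) and Col1a2 (-0.48 ± 0.11, adjusted p = 0.0174) fell. A dim one of Col1a2 did not pass (0.10 ± 0.06, adjusted p = 0.333). Col15a1, a collagen of basement membrane zones, was at -0.68, -0.65, -0.50 and -0.43 in COUM and -0.42 to -0.16 in corn oil (-0.28 ± 0.06, adjusted p = 0.00414). It is the collagen among the 12 stable falls, and its 2 lower arrays are COUM replicates 1 and 2. The collagen list had 15 falls against CCO2 alone, 5 after scaling, 1 without the arrays of low SD, 2 with the batch arrays that have an RNA integrity number alone and that number as a covariate, and 0 with the processing set alone. The fit with that covariate also used fewer arrays, so the 2 changes cannot be told apart in its count.

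Of 26 elastic fibre and other matrix genes 2 fell and 0 rose, with a median of -0.32. Eln, tropoelastin, was at 1.97, 1.61, 0.75 and 0.90 in COUM, against 2.30, 2.35, 1.88 and 2.74 in CCO2 and 2.66, 2.28, 1.57 and 1.96 in CCO3 (-0.91 ± 0.18, adjusted p = 0.00442). COUM replicates 1 and 2 lay inside the CCO3 range. Tnc, tenascin C, fell by 0.41 on the log2 scale (SE 0.10, adjusted p = 0.0212). Spon2, a secreted matrix protein, was at 0.72, 0.35, 0.31 and 0.46 in COUM and 0.70 to 1.76 in corn oil (-0.75 ± 0.16, adjusted p = 0.024), and Plat, tissue plasminogen activator, at 2.12, 1.83, 1.26 and 1.30 in COUM and 1.72 to 3.14 in corn oil (-0.76 ± 0.23, adjusted p = 0.048). The calls of these 4 genes were lost without COUM replicate 3 or 4. The second probe set of each did not pass. It was at -0.46 ± 0.11 for Eln (adjusted p = 0.0638) and -0.02 ± 0.07 for Tnc (adjusted p = 0.963). For Spon2 it was at 0.05 ± 0.05 (adjusted p = 0.873) and for Plat at -0.05 ± 0.05 (adjusted p = 0.689).

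Fibroblast and pericyte genes gave 2 falls and 0 rises among 18, and smooth muscle genes 3 falls and 0 rises among 15, with medians of -0.23 and -0.25. Npnt, the basement membrane ligand nephronectin, was at 3.19, 3.50, 2.97 and 2.79 in COUM, against 3.70 to 3.98 in CCO2 and 3.29 to 4.08 in CCO3 (-0.61 ± 0.13, adjusted p = 0.0162). COUM replicate 2 overlapped the controls. Of 4 further probe sets of Npnt 3 fell, by 0.72, 0.83 and 1.20 on the log2 scale, and the fourth differed by -0.33 (adjusted p = 0.142). The strongest of them was at 0.50, 0.98, 0.63 and 0.62 in COUM and 1.51 to 2.10 in corn oil, with no overlap. Its receptor subunit Itga8 was at 3.00, 3.15, 2.23 and 2.35 in COUM and 2.87 to 3.61 in corn oil (-0.47 ± 0.14, adjusted p = 0.0472). The contractile genes Cnn1 (-0.67 ± 0.20, adjusted p = 0.0491), Des (-0.58 ± 0.13, adjusted p = 0.0256) and Tagln (-0.57 ± 0.15, adjusted p = 0.0204) fell. Des was at 0.72 to 0.92 in COUM and 1.03 to 1.79 in corn oil, without overlap, and all 3 calls were lost without COUM replicate 3 or 4. A dim second probe set of Des did not pass (0.18 ± 0.06, adjusted p = 0.0813).

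Of 25 endothelial genes 6 fell and 0 rose, with a median of -0.39, and 1 fell with the processing set alone. Cdh5, the cadherin of endothelial junctions, was at 2.62, 2.76, 2.61 and 2.39 in COUM, against 3.12, 3.15, 3.17 and 3.31 in CCO2 and 3.38, 3.59, 2.91 and 2.98 in CCO3. All 4 coumarin arrays lay below all controls, close to each other (-0.61 ± 0.14, adjusted p = 0.012). Its second probe set fell by 0.82 on the log2 scale (SE 0.15, adjusted p = 0.00217). Tie1, an orphan receptor of endothelium, was at 1.56 to 1.75 in COUM and 1.78 to 2.51 in corn oil (-0.53 ± 0.15, adjusted p = 0.0399), and Flt1, a VEGF receptor, at 1.49 to 2.06 in COUM and 2.17 to 2.53 in corn oil (-0.49 ± 0.12, adjusted p = 0.0186). Neither overlapped, but the 3 further probe sets of Flt1 did not pass (-0.19, -0.31 and -0.15; adjusted p = 0.234, 0.0944 and 0.469). The tight junction gene Cldn5 was at 3.49 to 4.04 in COUM and 3.90 to 4.81 in corn oil (-0.52 ± 0.14, adjusted p = 0.0368), and the peptide ligand Apln at 0.62 to 1.07 in COUM and 1.04 to 1.92 in corn oil (-0.52 ± 0.13, adjusted p = 0.0373). Both overlapped the controls. Without the arrays of low SD the differences of Cdh5, Tie1, Cldn5 and Apln were -0.64, -0.63, -0.62 and -0.62. None of the 6 list members was called there, with fewer arrays in the fit. The median of the list was -0.33 in that fit, against -0.39 with all arrays. Flt1 was at 2.06 and 2.03 in COUM replicates 1 and 2 and lower, at 1.72 and 1.49, in COUM replicates 3 and 4.

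The stable falls have other roles. Anpep, the aminopeptidase CD13 of stromal, epithelial and myeloid cells, was at 0.37, 0.40, 0.08 and 0.42 in COUM, against 1.03, 1.13, 0.95 and 1.33 in CCO2 and 1.33, 1.29, 0.82 and 1.05 in CCO3 (-0.80 ± 0.12, adjusted p = 1.32e-05). All coumarin arrays lay below all controls, and replicates 1, 2 and 4 were nearly equal. Itga5, the fibronectin receptor subunit, was at -0.39, -0.39, -0.22 and -0.14 in COUM and 0.03 to 0.61 in corn oil (-0.67 ± 0.11, adjusted p = 0.00157). Its 3 further probe sets, at -0.06, 0.08 and -0.12, did not pass (adjusted p = 0.96, 0.85 and 0.15). Jund, an AP-1 transcription factor, was at 2.61, 2.51, 2.43 and 2.37 in COUM, against 2.94, 3.05, 3.03 and 3.21 in CCO2 and 3.56, 3.50, 2.92 and 2.99 in CCO3 (-0.67 ± 0.10, adjusted p = 0.00033). A dim second probe set of Jund did not pass (0.17 ± 0.06, adjusted p = 0.0819). Npr1, the natriuretic peptide receptor, was at -0.34 to -0.15 in COUM and 0.16 to 0.55 in corn oil (-0.54 ± 0.08, adjusted p = 8.81e-06).

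Mical2, which oxidises actin, was at 0.03 to 0.15 in COUM and 0.36 to 0.83 in corn oil (-0.53 ± 0.09, adjusted p = 0.00114). Cox4i2, a lung subunit isoform of cytochrome oxidase, fell by 0.52 on the log2 scale (SE 0.11, adjusted p = 0.00367). Scaf1, linked to RNA splicing, fell by 0.51 (SE 0.09, adjusted p = 0.00139), and Wiz, a zinc finger protein of histone methyltransferase complexes, by 0.43 (SE 0.07, adjusted p = 0.000732). A dim second probe set of Wiz did not pass (0.15 ± 0.05, adjusted p = 0.0955). For each of these 8 genes all 4 coumarin arrays lay below all 8 controls, which held for 161 of the 13523 tested genes (1.19%), and all above held for 156 (1.15%). With coumarin, benzene and CCO2 arrays alone, Anpep, Jund and Mical2 kept their calls and the other 5 did not.

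**Figure D4:**
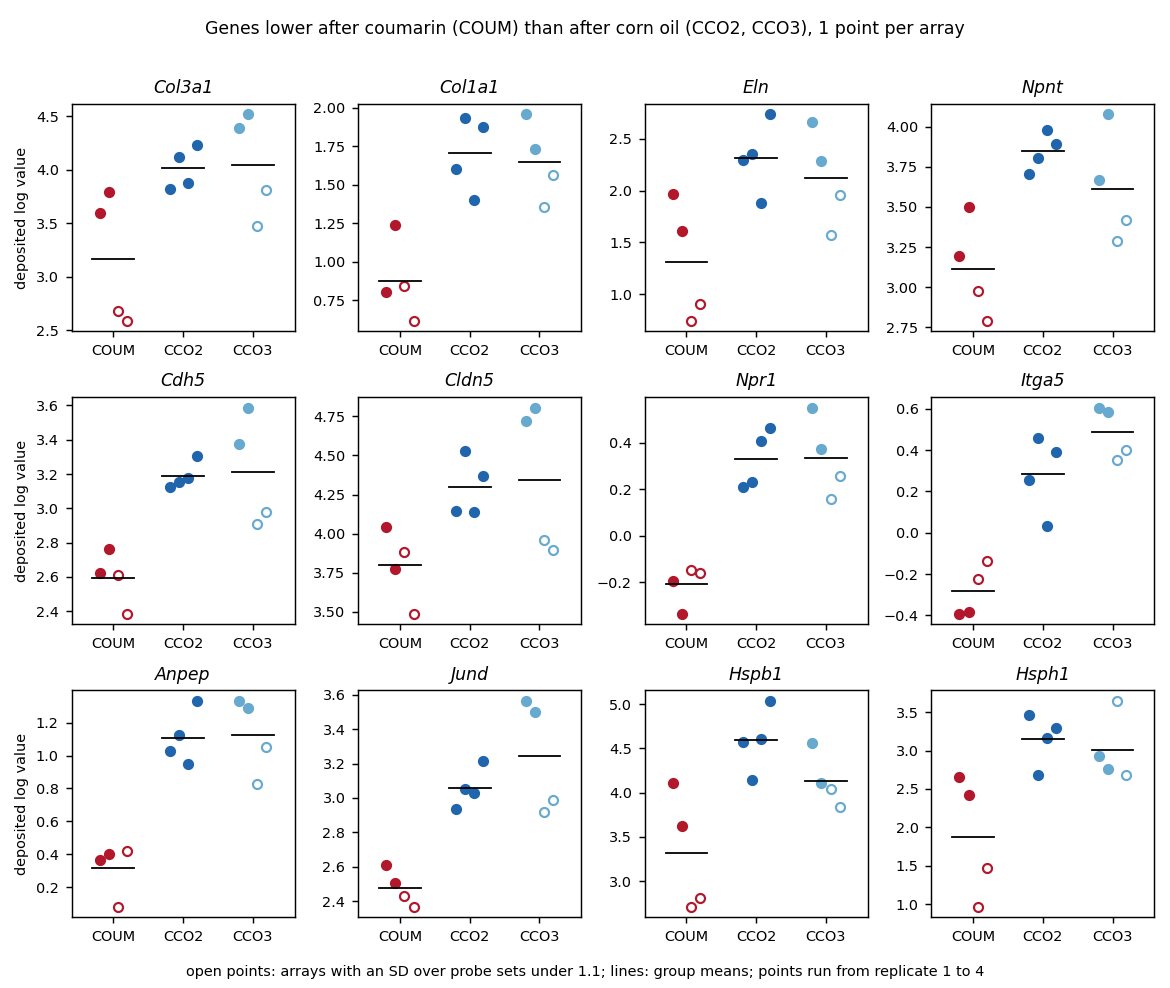
Deposited log2 values of 12 genes that fell with coumarin, each point 1 array, each line a group mean and open points the arrays of low SD, with COUM left of CCO2 and CCO3. Col3a1, Eln, Hspb1 and Hsph1 show COUM replicates 3 and 4 far below replicates 1 and 2, whereas the COUM points of Jund lie close together. Those of Anpep do so in replicates 1, 2 and 4, with replicate 3 lower at 0.08.

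Hsph1 and Hspb1 were the 2 called falls of over 1 log2 unit, and they are given here with the chaperone Hspd1, grouped after their values were seen. None of these 3 kept its call without COUM replicate 3 or 4. Hsph1, a nucleotide exchange factor of the HSP70 machine, was at 2.66, 2.42, 0.97 and 1.48 in COUM, against 3.46, 2.69, 3.16 and 3.29 in CCO2 and 2.93, 2.76, 3.65 and 2.68 in CCO3. All coumarin arrays were lower than all controls, COUM replicate 1 by a hair and COUM replicates 3 and 4 by over 1 log2 unit (-1.20 ± 0.29, adjusted p = 0.0182). The small heat shock protein Hspb1 was at 4.11, 3.62, 2.71 and 2.81 in COUM and 3.84 to 5.04 in corn oil (-1.05 ± 0.20, adjusted p = 0.0123), and the mitochondrial chaperonin Hspd1 at 2.69, 2.54, 1.53 and 1.85 in COUM and 2.34 to 3.49 in corn oil (-0.77 ± 0.21, adjusted p = 0.0319). COUM replicates 3 and 4 lay below all controls for both, and COUM replicate 1 among them. Of 25 genes of folding and secretion in the endoplasmic reticulum 3 fell and 0 rose, with a median of -0.28: Hsp90b1 (-0.75 ± 0.21, adjusted p = 0.0319), the co-chaperone Dnajb9 (-0.65 ± 0.15, adjusted p = 0.0292) and calreticulin, Calr (-0.47 ± 0.12, adjusted p = 0.0264). Without the arrays of low SD, Hsph1 was at -0.46, Hspb1 at -0.59, Hspd1 at -0.21 and Hsp90b1 at -0.19, and none of these 6 was called.

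The nuclear RNA Malat1 was at 1.37, 1.53, 0.88 and 0.73 in COUM and 1.71 to 2.40 in corn oil (-0.91 ± 0.20, adjusted p = 0.00619), without overlap, and of its 6 other probe sets 1 was called (-1.11 ± 0.29). Paraoxonase Pon1, a lipoprotein-bound lactonase, was at 3.68, 3.32, 1.61 and 2.90 in COUM and 3.36 to 4.12 in corn oil (-0.78 ± 0.18, adjusted p = 0.0239), so that COUM replicate 1 equalled a typical control. Mndal, of the interferon-inducible DNA-binding family, fell by 0.73 on the log2 scale (SE 0.22, adjusted p = 0.0491), and Egr1, the one immediate early gene called among 22 tested, by 0.72 (SE 0.20, adjusted p = 0.0461). The 22 immediate early genes had a median of -0.38. None of these 4 kept its call without COUM replicate 3 or 4.

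Of 18 clock genes 2 rose and 1 fell, beside 4.06% risen and 1.63% fallen of all tested genes. The time of day at which lungs were taken is not labelled. Dbp, a clock output factor, was at 1.62, 2.18, 2.02 and 1.23 in COUM, against -0.38, -0.54, 1.35 and 0.82 in CCO2 and -0.11, -0.56, -1.33 and -0.16 in CCO3 (1.88 ± 0.36, adjusted p = 0.0165). CCO2 replicates 3 and 4 stood close to the coumarin arrays, and leaving out CCO2 replicate 1 or 2 or COUM replicate 3 ended the call. Tef, a related factor, rose (0.55 ± 0.15, adjusted p = 0.0451) and Arntl, the core activator BMAL1, fell (-0.76 ± 0.16, adjusted p = 0.0187). Nr1d1 (0.22 ± 0.24, adjusted p = 0.657) and Per2 (0.22 ± 0.11, adjusted p = 0.26) did not pass. Leaving out 1 array in turn ended the call of Tef in 7 of 12 analyses and that of Arntl in 3. No clock gene was called by limma without the arrays of low SD, with the processing set alone, or with the batch arrays that have an RNA integrity number alone and that number as a covariate, where Dbp, Tef and Arntl had adjusted p of 0.118, 0.162 and 0.535 in the first of these.

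Lists with 1 or 2 calls are given next, beside 4.06% risen and 1.63% fallen of all tested genes, as single genes only. Of 20 macrophage genes 2 rose and 1 fell: the scavenger receptor Marco was at 1.39, 1.26, 1.35 and 1.02 in COUM and 0.46 to 1.00 in corn oil (0.52 ± 0.12, adjusted p = 0.0115), Trem2 rose by 0.24 ± 0.05 (adjusted p = 0.0161) and the integrin Itgax fell by 0.42 on the log2 scale (SE 0.12, adjusted p = 0.046). Cd74, the class II invariant chain, was at 4.64, 4.65, 4.30 and 4.06 in COUM and 4.61 to 5.32 in corn oil (-0.53 ± 0.11, adjusted p = 0.00338), the 1 fall among 12 B and plasma cell genes. Tnf (0.20 ± 0.05, adjusted p = 0.0208) was the 1 rise among 15 neutrophil and inflammation genes, Oasl2 (-0.56 ± 0.14, adjusted p = 0.0382) the 1 fall among 16 interferon genes and Igfbp3 (-0.53 ± 0.13, adjusted p = 0.0259) the 1 fall among 27 growth factor genes. Tnf was at -0.47 and -0.50 in COUM replicates 1 and 2, -0.15 and 0.01 in COUM replicates 3 and 4 and -0.77 to -0.30 in corn oil. None of these 7 was called without the arrays of low SD. Among markers of other tissues the skeletal muscle actinin Actn3, dim on every array, rose by 0.27 ± 0.07 (adjusted p = 0.0209), 1 of 11 genes, with COUM replicates 3 and 4 at -0.21 and -0.04 and the other 10 arrays at -1.02 to -0.46. By limma no gene rose or fell among 21 cell cycle, 17 p53 and DNA damage, 15 T and NK cell, 15 matrix protease, 14 glucocorticoid, 9 NADPH supply, 19 sterol and fatty acid synthesis, 20 mitochondrial respiration, 15 cardiac muscle, 12 adipose, 7 erythroid and 10 mesothelial and lymphoid genes, while 2344 of all tested genes had an unadjusted p under 0.05 against both sets.

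Coumarin was also set directly against the 2 other chemicals given in corn oil in the same batch, at their own doses of 62 mg/kg and 100 mg/kg. Against 1,2-dibromoethane limma called 1895 genes higher (14%) and 3302 lower (24.4%), and against benzene 1292 higher (9.55%) and 2522 lower (18.6%). This excess of lower genes turned with the normalization. After quantile normalization 3441 were higher and 2049 lower than with 1,2-dibromoethane, and 1359 higher and 618 lower than with benzene. After scaling the counts were 2916 higher and 2379 lower, and 1472 higher and 1057 lower. Of the 549 genes that rose against corn oil 410 were also higher than with 1,2-dibromoethane and 426 higher than with benzene, and of the 220 fallen genes 183 and 180 were lower. These comparisons share the 4 COUM arrays with the comparison with corn oil. BENZ arrays have SDs of 1.22 to 1.30 and DBET arrays 1.27 to 1.31, so COUM replicates 3 and 4 are the compressed arrays of both comparisons, and without COUM replicate 4 the total called against benzene was 415, against 3814 with it. The beta-actin 3' minus 5' difference, a sign of RNA quality, was 0.663 to 0.773 on the COUM arrays and 1.55 on DBET replicate 1, whose RNA integrity number was 7.1, and without that array 4410 genes were called, against 5197 with it.

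Ces1g was at 1.21 to 2.72 in COUM, against 0.04 to 1.13 in DBET and 0.04 to 0.15 in BENZ, with no overlap. It differed by 1.27 ± 0.17 from DBET (adjusted p = 3.05e-09) and by 1.72 ± 0.17 from BENZ (adjusted p = 1.27e-15). Nqo1 was at 0.78 to 1.22 in COUM, against -0.16 to 0.45 in DBET and -0.16 to 0.08 in BENZ, and its differences were 0.92 ± 0.12 (adjusted p = 1.43e-09) and 1.05 ± 0.12 (adjusted p = 3.53e-12). Agr2 was at 0.14 to 0.96 in COUM, against -0.61 to 0.13 in DBET and -0.88 to -0.51 in BENZ, and differed by 0.71 ± 0.18 (adjusted p = 0.000785) and 1.17 ± 0.18 (adjusted p = 7.41e-07). Each of these 3 genes was thus higher with coumarin than with either chemical, Agr2 by the narrowest gap to DBET.

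Further genes higher than with both were Aoc1 (0.72 and 1.24), Gp2 (0.80 and 1.17), Serpind1 (0.96 and 0.69), Chad (0.47 and 1.32), Pnliprp1 (0.54 and 0.96), Acsm1 (0.40 and 1.12) and Afp (0.74 and 0.44), in log2 differences from DBET and from BENZ. Cxcl17 parted the 2 chemicals: it was at 2.72 to 3.35 in COUM, 3.06 to 3.95 in DBET and 1.25 to 2.60 in BENZ, which is lower than with DBET (-0.52 ± 0.21, adjusted p = 0.0432) and 1.11 ± 0.21 higher than with BENZ. Aldh3a1 differed by 0.22 ± 0.20 from DBET (adjusted p = 0.405) and by 1.13 ± 0.20 from BENZ (adjusted p = 4.46e-05). Hal and Dbp were higher than with DBET, by 1.13 and 1.04, and not past the threshold against BENZ, at 0.18 and 0.12.

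Among the genes that fell, Col3a1 was at 2.59 to 3.79 in COUM, against 3.55 to 4.62 in DBET and 3.83 to 4.33 in BENZ (-0.91 ± 0.17 and -0.84 ± 0.17). Eln was at 0.75 to 1.97 in COUM, against 0.98 to 2.03 in DBET and 2.01 to 2.37 in BENZ, so that its difference was 0.01 ± 0.20 from DBET (adjusted p = 0.984) and -0.87 ± 0.20 from BENZ (adjusted p = 0.00178). Jund was at 2.37 to 2.61 in COUM, against 3.28 to 3.56 in DBET and 2.72 to 3.14 in BENZ (-0.88 ± 0.12 and -0.45 ± 0.12), without overlap with either. Hsph1 (-1.72 and -1.03), Hspb1 (-1.23 and -1.23) and Pon1 (-1.58 and -0.64) were lower than with both, in the order DBET and BENZ. The lamellipodin gene Raph1 (-1.09), Mndal (-1.49), Hspd1 (-1.36) and Hsp90b1 (-1.25) were among the largest differences from DBET. The extracellular superoxide dismutase Sod3 (-0.81), Plat (-0.82), the sphingosine phosphate transporter Spns2 (-0.78) and Disp2 (-0.78) were so from BENZ. The probe sets of Disp2 disagree in sign against corn oil. A further one was called higher (0.18 ± 0.05, adjusted p = 0.0352), and another did not pass (0.16 ± 0.06, adjusted p = 0.123).

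Counts by list stand beside shares over all tested genes of 14% higher and 24.4% lower than with 1,2-dibromoethane, and 9.55% higher and 18.6% lower than with benzene. They are from the values as deposited alone. Over all tested genes the excess of lower ones turned after scaling and after quantile normalization. How the list counts change in those settings, or without COUM replicates 3 or 4, was not tested. The 29 tested genes of NRF2 and glutathione included 4 higher and 6 lower than with 1,2-dibromoethane, and 8 higher and 2 lower than with benzene. Gclc was one of the lower ones against DBET (-0.72 ± 0.18, adjusted p = 0.000942). Club cell genes were 1 higher and 10 lower than with DBET and 4 higher and 0 lower than with BENZ, of 19, and goblet genes 3 higher and 1 lower, and 9 higher and 0 lower, of 20. Collagen genes were 0 higher and 14 lower, and 0 higher and 23 lower, of 30, and endothelial genes 0 higher and 10 lower, and 0 higher and 15 lower, of 25. Genes of folding and secretion in the endoplasmic reticulum were 0 higher and 15 lower, and 0 higher and 16 lower, of 25, and basal and neuroendocrine cell genes 7 and 8 higher and 0 lower, of 8. Among lists of other tissues, 6 of 7 erythroid genes were lower than with BENZ (median -0.61), while 6 of 11 skeletal muscle genes and 5 of 10 mesothelial and lymphoid genes were higher than with DBET (medians 0.18 and 0.25). Their part in the differences from DBET and BENZ was not tested. In the other batch, 2,3-benzofuran minus its own CornOil controls gave 1.96 ± 0.19 for Ces1g, 1.15 ± 0.13 for Nqo1, 1.56 ± 0.22 for Gpx2, 1.23 ± 0.23 for Aldh3a1, 1.15 ± 0.25 for Cxcl17, 1.03 ± 0.16 for Acsm1, 0.20 ± 0.20 for Agr2 and -0.51 ± 0.19 for Col3a1. Dose and batch differ from those of coumarin, so these values stand beside its 2.23, 1.24, 1.14, 0.97, 0.99, 1.22, 1.03 and -0.87 without a comparison.

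Levels in all 13 groups of the batch, each of 4 arrays and given in corn oil, water or chow, are a description without a test. Ces1g averaged 1.82 ± 0.66 in COUM (SD, n = 4), the highest mean, followed by malathion (MALA) at 0.59 ± 0.49, with CCO2 at -0.38 ± 0.09 and CCO3 at -0.43 ± 0.15 among the lowest. Nqo1 averaged 1.00 ± 0.22 in COUM, followed by MALA at 0.42 ± 0.41. Agr2 averaged 0.40 ± 0.38 in COUM, followed by DBET at -0.31 ± 0.32. Malathion spread widely for both enzymes, and its highest array reached 0.86 for Nqo1, inside the coumarin range. At the other end Col3a1 averaged 3.16 ± 0.62 in COUM, the lowest mean, with 2-chloromethylpyridine hydrochloride (CMPH) next at 3.79 ± 0.36. Jund averaged 2.48 ± 0.10 in COUM, next to N-methylolacrylamide (MACR) at 2.65 ± 0.16, and Anpep 0.32 ± 0.16, next to MACR at 0.48 ± 0.18. For Jund and Anpep the ranges of COUM and its neighbour in that order overlap. For Hsph1 the malathion mean, 1.27 ± 0.38, was below that of coumarin, 1.88 ± 0.79.

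**Figure D5:**
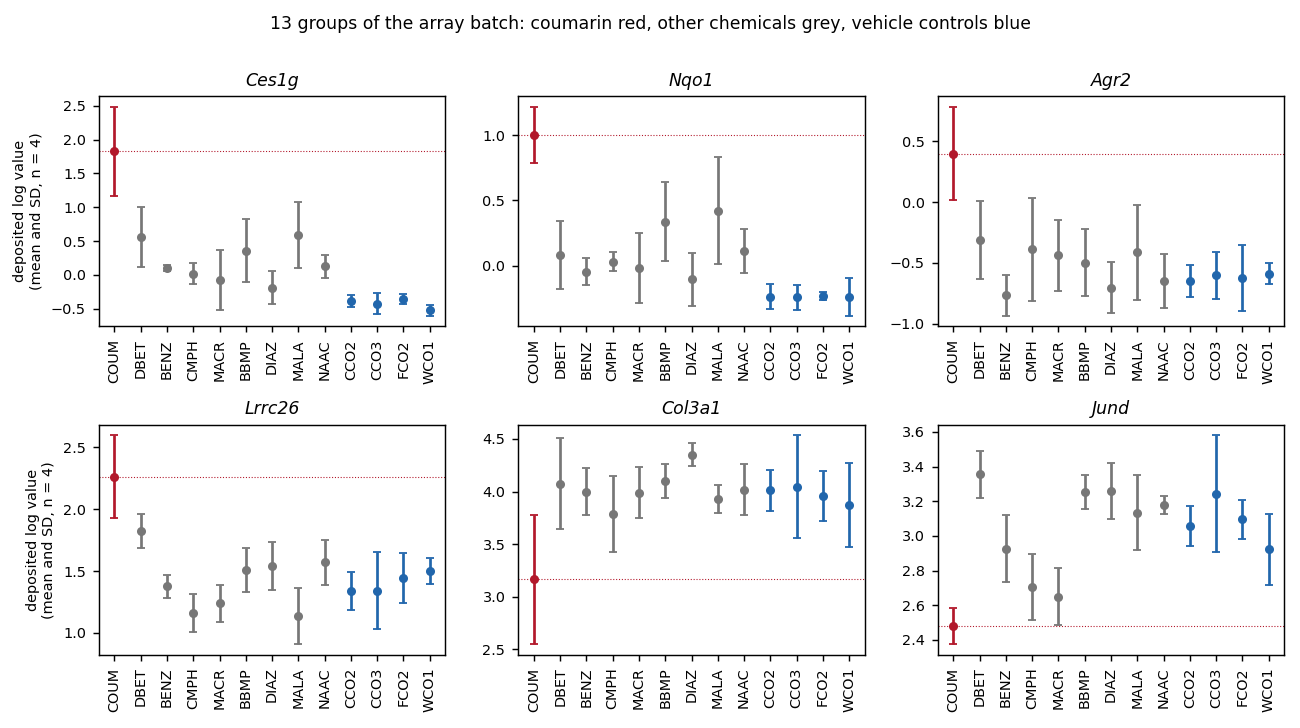
Mean deposited log2 value (points) and SD (bars, n = 4) of Ces1g, Nqo1, Agr2, Lrrc26, Col3a1 and Jund in the 13 groups of the array batch, with coumarin in red at the left, other chemicals in grey and vehicle controls in blue at the right, and a dotted line at the coumarin mean. The coumarin mean is the highest of the 13 for Ces1g, Nqo1, Agr2 and Lrrc26 and the lowest for Col3a1 and Jund.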

How the data were processed

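Lung RNA was measured on Affymetrix Mouse430_2 arrays, 1 array per mouse, and arrays were grouped by the group codes of the labels. The deposited values are log values per probe set; the base is taken as log2, and the authors' background correction, normalization and probe summary are not given in the sources used here. The table holds 45101 probe sets, of which 34958 carry 1 gene symbol, 932 several and 9211 none. The platform annotation was updated to current symbols for 34754, and control probe sets were left out. For each gene the probe set of highest mean was used, and genes above the median of all values on at least 3 arrays were tested, 13523 of 18193. Group means of all 48 groups were fitted over 191 arrays with limma 3.58.1 in R 4.3.3 (lmFit, eBayes), so that all groups share 1 estimate of the spread, with Benjamini-Hochberg adjustment over all tested genes at 0.05. The number of arrays limits the precision, and array measures were compared with two-sided exact permutation tests. Tables were handled with pandas 2.3.3 and numpy 2.4.6. In simulated data for coumarin against both sets, 66% of 100 genes shifted by 0.5 and 99% of 100 shifted by 1 were called among 13523, with 2 false calls. The simulated noise was independent, had the same SD in all groups for a gene and held no compressed arrays. These figures therefore do not give the error rate in the real arrays.

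Named genes are Ces1g, Nqo1, Agr2 and Col3a1, the 15 largest called rises and falls with a gene name, up to 4 called members of each gene list, or up to 2 bright members of a list without calls, and up to 8 genes each way in the comparisons with the other chemicals. The members and lists were chosen with earlier results of these data known. Gsto1, Lrrc26, Fetub, Acox2, Cmbl, Wfdc3, Klk13, Npr1, Itga5, Jund, Mical2, Scaf1, Wiz, Cox4i2, Col15a1 and Flt1, and the genes given as not past the threshold, were chosen after their values were seen. Alternatives changed the normalization, filter, choice of probe set, arrays in the fit, control set and covariates. Scaling of arrays, leaving out arrays with an SD under 1.1 and using the arrays of 1 processing set alone, inferred from array means, were added after the data were seen.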

Additional observations from a re-analysis of the deposited data

Results flagged for a closer look

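Within groups of 4 arrays, 327 gene and quality values were searched for 1 array far from the other 3 by Dixon's criterion (critical value 0.829), and 14 passed, where chance gives about 1 in 20. In COUM replicate 4, Scgb1a1 was low at 5.83, Sftpc at 6.20, Ager at 6.05 and Per2 at 0.13. In COUM replicate 3, Hal was high at 1.96, Anpep low at 0.082 and the RNA integrity number low at 7.4. Krt14 was low at -0.66 in COUM replicate 2. In CCO2 replicate 1, Ces1h was high at -0.47, Oasl2 low at 0.35 and Spns2 low at 1.30. In CCO2 replicate 3, Ces1g was high at -0.25 and Itga8 high at 3.61. Nhsl2 was high at 1.17 in CCO3 replicate 2.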

How the results depend on the processing

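Counts of genes higher and lower with coumarin, 549 and 220 as reported, were 1240 higher without the filter on dim probe sets, 1231 higher after quantile normalization and 1008 higher after scaling. They were 865 and 337 with every probe set on its own, 1301 and 1155 with the controls as 1 group, 908 and 666 against CCO2 alone, and 869 and 584 against CCO3 alone. They were 179 and 122 with the batch alone, 16 and 1 with the 3 groups alone, 29 and 19 with the processing set alone, 77 and 68 without CCO3 animals 59 and 60, 190 and 133 with the batch arrays that have an RNA integrity number alone and that number as a covariate, and 60 and 20 without the arrays of low SD. With the beta-actin 3' minus 5' difference as a covariate they were 576 and 242. Leaving out 1 array gave 108 to 1140 higher and 37 to 622 lower. The arrays whose removal moved a count by over 1.5 times were COUM replicate 1 (1022 and 622), 2 (1140 and 609), 3 (108 and 37) and 4 (109 and 40), CCO2 replicate 3 (240 and 129) and CCO3 replicate 2 (148 and 57). For falls alone they were also CCO2 replicate 4 (127) and CCO3 replicates 1 (125), 3 (360) and 4 (334). Totals against 1,2-dibromoethane were 5197 as reported, 8833 without the filter and 3177 to 6180 with 1 array left out, with 3177 and 3202 without COUM replicates 3 and 4. Totals against benzene were 3814 as reported, 6067 without the filter, 1977 after quantile normalization, 1953 with the batch alone, 2529 after scaling and 415 to 5800 with 1 array left out, the lowest without COUM replicate 4 and the highest without COUM replicate 1, and were 759 without COUM replicate 3 and 1979 and 2060 without BENZ replicates 2 and 3. CCO2 against CCO3 gave 4 as reported, 69 after quantile normalization and 0 to 20 with 1 array left out. The cause of these shifts was not tested beyond the loss of arrays or genes that each setting makes. Signs turned for 6 genes. Gclc was -0.046 against CCO2 alone and in the processing set alone, -0.037 with the batch arrays that have an RNA integrity number alone and that number as a covariate, and -0.14 to 0.17 with 1 array left out, below 0 without COUM replicate 1 (-0.14) or 2 (-0.09), CCO2 replicate 2 (-0.025) or CCO3 replicate 4 (-0.0044). Hmox1 was 0.032 after quantile normalization, and Scgb1a1 0.13 after scaling. Cyp2f2, Sftpc and Ager were 0.046, 0.043 and 0.10 after quantile normalization and 0.35 each after scaling, and against CCO3 alone Cyp2f2 was 0.029 and Ager 0.0052. With 1 array left out they spanned -0.21 to 0.042, -0.21 to 0.030 and -0.21 to 0.028, above 0 without COUM replicate 4. Of the 94 named genes that were called, 94 kept the call without the filter, 80 after quantile normalization, 83 after scaling, 58 with the batch alone, 36 without the arrays of low SD and 15 with the 3 groups alone. No paired analysis was possible because replicate numbers follow accession order only and pair no animals.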
